A study of Homo sapiens with 4 samples.

Results

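The insulin-like growth factor (IGF) axis was followed through 10 genes in UMSCC74B cells, an established line of head and neck squamous cell carcinoma (HNSCC). The genes were the binding proteins IGFBP2, IGFBP3, IGFBP4, IGFBP5, IGFBP6 and IGFBP7, the receptors IGF1R and INSR, and the receptor substrates IRS1 and IRS2. They were chosen by name, with earlier results of these data known. Each name was found in the count tables, as 10 of 29655 gene names. Of the 10, 9 passed the filter on low levels and were tested among 11906 protein-coding genes. The libraries were 2 controls, from cells given a control shRNA plasmid, and 2 labelled PRMT5 KD (the KD-labelled libraries), from cells given shRNA plasmid against PRMT5. PRMT5 is an arginine methyltransferase. All 4 libraries came from total RNA of cells with the label genotype WT, collected 72 h after transfection. The labels speak of transfection, whereas the study's methods describe lentiviral particles made from such plasmids. The model was 1 cell line, and nothing in the labels says whether the replicates were separate cultures, so p-values measure only the spread between these libraries, which may be technical.

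IGF1 and IGF2 are secreted growth factors that act mainly through IGF1R, a receptor tyrosine kinase closely related to the insulin receptor INSR. Both receptors phosphorylate the docking proteins IRS1 and IRS2, which recruit PI3K and start AKT and mTOR signalling. The IGFBPs are secreted proteins that hold IGFs outside the cell and can keep them from the receptor or deliver them to it, and in squamous carcinomas IGF1R is a well known growth and survival receptor.

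Library totals ranged from 52185289 to 65964558 estimated counts, and 71.6% to 81.4% of them lay on protein-coding genes. PRMT5 KD replicate 1 had the largest share of counts on rRNA, 26.2%, against 14.2% to 18.0% in the other libraries. The PRMT5 transcript itself went against the label. It stood at 94.2 and 84.2 CPM (counts scaled to a common library size with TMM factors) in control and at 132 and 149 CPM in the KD-labelled libraries. PRMT5 was thus higher in the KD-labelled libraries, by 0.66 in log2 fold change (SE 0.12, edgeR FDR 0.00548), and without control replicate 2 that call was lost (0.58, FDR 0.0677). The study reports an immunoblot, a measure of protein, that showed silencing by its PRMT5 shRNA. Quantitative PCR and immunoblots of PRMT5, which the labels also name, were not analysed here. Each direction given is therefore one between libraries as they are labelled. The squamous label was borne out by only some of its markers. KRT5 and KRT14 had 0 counts in both control libraries, CDH1 had 9 and 4, and only 3 of 10 squamous markers passed the level filter. Summed over the list, the squamous markers made up 58.2 and 52.4 CPM in control and 37.0 and 48.7 CPM in the KD-labelled libraries. Of those that were tested, TP63 and DSG3 fell and PKP1 rose. Of those below the filter, KRT17 had 5 and 6 counts in control and 53 and 71 in the KD-labelled libraries. SFN had 3 and 5 against 28 and 86 counts, and EPCAM 37 and 29 against 40 and 48. In the KD-labelled libraries KRT14 had 11 and 22 counts, CDH1 2 and 4, KRT5 0 and 4, and KRT6A 0 and 0.

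Promoter sequence is shown for the members with the largest changes, as 30 bases of the sense strand from RefSeq promoters on GRCh38.p14. Base -1 is the last one before the start annotated in RefSeq. For IGFBP6 that start is not the start of the gene span given below (chr12:53097436-53102345). Its window lies inside that span. In the binding protein windows, which cover bases -40 to -11, capitals mark the TATA box letters TATAAA. In the receptor windows, capitals mark the GC box letters GGGCGG. The binding protein windows came from chr17:40443410-40443439 (plus strand, IGFBP4), chr2:216695560-216695589 (minus strand, IGFBP5) and chr12:53097627-53097656 (plus strand, IGFBP6). The receptor windows came from chr19:7294482-7294511 (minus strand, INSR, bases -97 to -68) and chr15:98648334-98648363 (plus strand, IGF1R, bases -205 to -176).
IGFBP4: ccagggaccggTATAAAgtccgggggagcc
IGFBP5: ggggccggctatttaaaagcgcctgctctc
IGFBP6: gccggcggctacttaagacagaggggcggc
INSR: GGGCGGGGCGGGGCGGggccGGGCGGcacc
IGF1R: GGGCGGgagatggGGGCGGcgcctcgcagt

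The table of promoters, 250 bases before to 50 after each start, held 11 entries for 9 of the 10 members and none for IGFBP7. Both strands were searched, and matches could share bases. TATAAA was present in 11.5% of 35116 promoters and, among the members, only in that of IGFBP4. GGGCGG was present in 45.0% of promoters, and the copies of INSR (4) and IGF1R (2) lay within the windows shown. The members that were not called held it too, with 5 copies in IRS2, 4 in IRS1 and 2 in IGFBP3, and IGFBP4 held 2, IGFBP6 held 1 and IGFBP5 held 0. The INSR copies partly share a base with the next copy. CCAAT was present in 34.6% of promoters, the AP-1 letters TGANTCA in 7.71% and the FOXO letters GTAAACA in 3.42%, and IGFBP6 held 1 copy of GTAAACA. A match to these letters is a description of the window, not a site of binding.

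Of the 9 tested members, 1 rose and 5 fell in the KD-labelled libraries, and 3 did not pass the test. Calls required both an FDR (false discovery rate) below 0.05 and a log2 fold change of 0.5 or more in size. Of all genes tested, 21.2% rose and 24.3% fell by the same rule, 45.5% in either direction, so a call is common among genes in these libraries. The members were chosen with earlier results of these data known, so their share called is not an independent result. Higher calls made up 46.6% of all calls, and 61.5% when library totals replaced the TMM factors. The median log2 fold change was -0.74 over the 9 members and -0.00738 over all genes tested. For the 6 called genes the libraries of one group did not overlap those of the other. How often that held over all genes tested was not counted, so it adds no support to the calls.

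**Figure D1:**
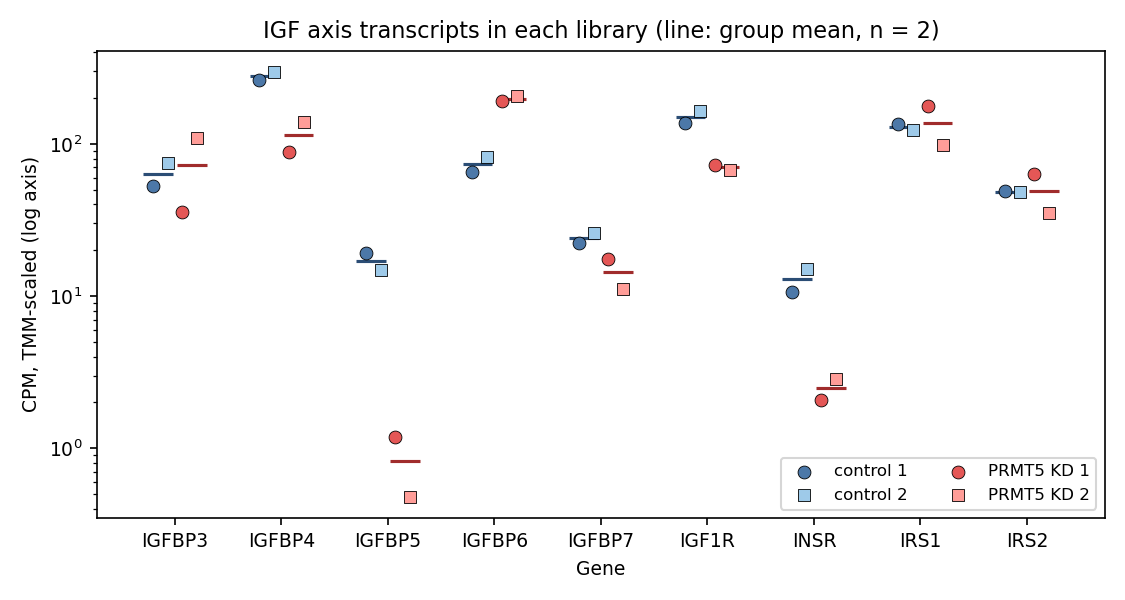
Level of each of the 9 tested IGF axis members in each library, in CPM on a log axis, with 1 point per library and a line at each group mean (n = 2 per group). IGFBP4, IGFBP5, IGFBP7, IGF1R and INSR lie lower in both KD-labelled libraries than in both controls, IGFBP6 lies higher in both, and IGFBP3, IRS1 and IRS2 have 1 KD-labelled library on each side of the controls.

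IGFBP5, a binding protein that also sits in the extracellular matrix, fell the furthest among the members. The gene lies at chr2:216672105-216695549 on the minus strand (GRCh38, GENCODE release 44). Its estimated counts were 765 and 748 in control against 56 and 23 in the KD-labelled libraries. In CPM these were 19.3 and 14.9 against 1.18 and 0.481, with means of 17.1 ± 3.09 and 0.828 ± 0.492 (SD, n = 2 each). Both control libraries stood far above both KD-labelled libraries. The log2 fold change was -4.36 (SE 0.40, 95% interval -5.36 to -3.37, edgeR FDR 0.000765), a level 20.6-fold lower. Only 0.328% of all genes tested fell at least as far. Leaving out PRMT5 KD replicate 1 moved the log2 fold change to -5.11, and leaving out PRMT5 KD replicate 2 moved it to -3.85.

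IGFBP4, a binding protein known mostly for restraining IGFs until PAPPA cuts it, was the most abundant IGFBP in control. It lies at chr17:40443450-40457725 on the plus strand. Its level was 264 and 297 CPM in control and 88.7 and 139 CPM in the KD-labelled libraries. The lower control library was thus well above the higher of the other group. IGFBP4 fell by 1.30 on the log2 scale (SE 0.23, 95% interval -1.87 to -0.73, FDR 0.00571).

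IGFBP7, a secreted relative that binds IGFs only weakly and is found around vessels, showed a smaller fall that depended on the libraries. The gene lies at chr4:57030773-57110385 on the minus strand. It stood at 22.2 and 25.8 CPM in control and at 17.6 and 11.2 CPM in the KD-labelled libraries. The groups did not overlap, but the gap between the nearest libraries was small. The log2 fold change was -0.74 (SE 0.23, 95% interval -1.31 to -0.17, FDR 0.0377). The call was lost without control replicate 1 (-0.84, FDR 0.0999), without control replicate 2 (-0.63, FDR 0.193) and without PRMT5 KD replicate 2 (-0.44). It was lost as well with library totals in place of TMM factors (-0.57, FDR 0.0584) and when all gene names were tested (-0.63, FDR 0.0576). IGFBP7 overlaps POLR2B, which is read from the opposite strand and had 9378, 12408, 7754 and 6127 counts in the order control 1, control 2, PRMT5 KD 1 and PRMT5 KD 2. Whether the counting used strand is not stated, so reads of the 2 genes cannot be told apart where they overlap.

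IGFBP6, the binding protein that prefers IGF2 over IGF1, was the only member that rose. It lies at chr12:53097436-53102345 on the plus strand. Its level was 65.4 and 82.6 CPM in control and 190 and 207 CPM in the KD-labelled libraries, means of 74.0 ± 12.1 and 199 ± 12.2 (SD, n = 2 each). The groups lay far apart compared with the spread inside each. IGFBP6 rose by 1.42 on the log2 scale (SE 0.15, 95% interval 1.07 to 1.78, FDR 0.000704), and 4.87% of all genes tested rose at least as much.

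IGFBP3, the main carrier of IGFs in blood and also a p53-induced gene, had no common direction. The gene lies at chr7:45912245-45921874 on the minus strand. It stood at 52.7 and 74.5 CPM in control, at 35.9 CPM in PRMT5 KD replicate 1 and at 109 CPM in PRMT5 KD replicate 2. The control libraries therefore lay between the KD-labelled ones. The log2 fold change was 0.19 (SE 0.55, 95% interval -1.29 to 1.66, FDR 0.80). A single library decided the direction, with a higher call of 0.81 (FDR 0.0162) without PRMT5 KD replicate 1 and a lower call of -0.82 (FDR 0.0201) without PRMT5 KD replicate 2.

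IGFBP2, a binding protein raised in many carcinomas, was barely detected in these libraries. The gene lies at chr2:216632828-216664436 on the plus strand, next to IGFBP5 and 7669 bases from it. It had 0 and 2 counts in control and 2 and 0 counts in the KD-labelled libraries. The 2 counts of either group have an exact Poisson interval of 0.242 to 7.22 counts, which allows up to 0.0805 CPM in control and 0.0757 CPM in the KD-labelled libraries. No fold was computed, and such intervals cover counting error only, since PCR copies are not independent molecules.

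Per length of exon, as RPKM, the CPM divided by the summed exon length in kilobases, the order of the binding proteins differed between the groups. In control, IGFBP4 led with a mean of 127 RPKM, followed by IGFBP6 with 55.0 RPKM. Under the PRMT5 KD label IGFBP6 led with 148 RPKM and IGFBP4 followed with 51.7 RPKM. In both groups these 2 genes stood above every other member in every library. IGFBP5 was at 2.65 RPKM in control and 0.128 RPKM in the KD-labelled libraries, where only IGFBP2 was lower. IGFBP3, IRS1, IGFBP7 and IGF1R came after IGFBP6 in control, at means of 13.9, 13.0, 12.4 and 10.9 RPKM, and neighbours in that run overlapped between libraries. IRS2, IGFBP5, INSR and IGFBP2 followed without overlap. In the KD-labelled libraries IGFBP3 overlapped IRS1, and also IGFBP7, at 7.86 against 9.12 RPKM in PRMT5 KD replicate 1. Neighbours in the run of IGFBP7, IRS2 and IGF1R overlapped as well, and INSR lay above IGFBP5 in both libraries.

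The summed level of the 6 IGFBPs did not separate the groups, while its makeup did. The sum was 195 and 228 RPKM in control and 199 and 247 RPKM in the KD-labelled libraries, so the groups overlapped (exact permutation test, two-sided, p = 0.667). IGFBP4 made up 61.6% and 59.1% of it in control but 20.3% and 25.6% in the KD-labelled libraries. IGFBP6 made up 25.0% and 26.9% in control but 71.1% and 62.4% in the KD-labelled libraries. These shares do not depend on the scaling between libraries, and for both genes the groups lay apart. IGFBP5 went from 1.53% and 1.01% to 0.0916% and 0.0301%, and IGFBP7 from 5.92% and 5.86% to 4.59% and 2.34%. IGFBP3 held 5.93% and 7.15% in control and 3.96% and 9.64% in the KD-labelled libraries. With 2 libraries against 2 the exact permutation test cannot go below p = 0.333, which was its value for IGFBP4, IGFBP5, IGFBP6 and IGFBP7.

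**Figure D2:**
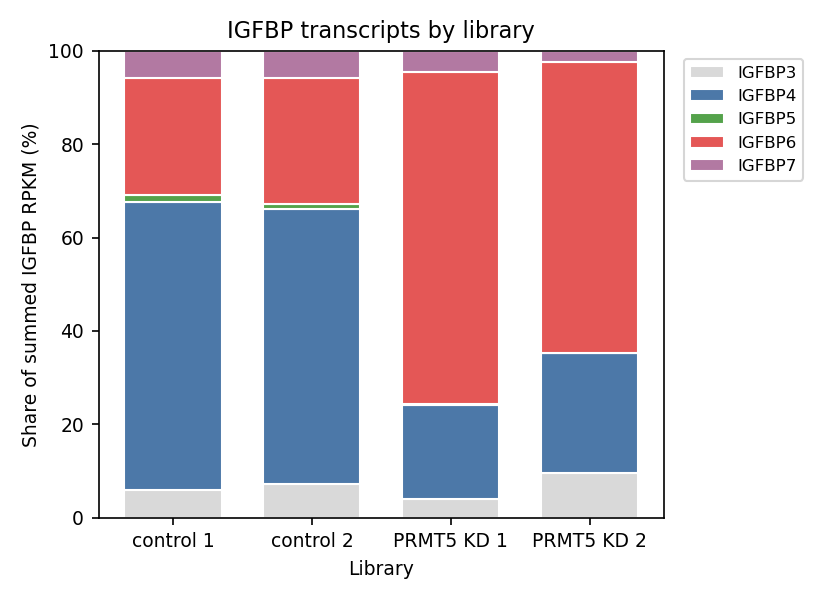
Share of each binding protein in the summed IGFBP level of each library, in percent of summed RPKM, as 1 stacked bar per library. IGFBP4 takes 61.6% and 59.1% of the control bars and IGFBP6 takes 71.1% and 62.4% of the bars labelled PRMT5 KD.

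The IGF receptor and the insulin receptor both fell. IGF1R, at chr15:98648539-98964530 on the plus strand, stood at 138 and 165 CPM in control and at 73.2 and 67.5 CPM in the KD-labelled libraries. Both control libraries lay above both of the other group, with a gap wider than the spread inside either. IGF1R fell by 1.10 on the log2 scale (SE 0.13, 95% interval -1.42 to -0.79, FDR 0.00110), a level 2.15-fold lower. Its exons sum to 13941 bases against a median of 5381.5 bases over the genes tested, and once exon length and GC content were corrected for it stood at -0.71 in log2 fold change, with the call kept.

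INSR lies at chr19:7112255-7294414 on the minus strand. It had 424 and 757 counts in control and 99 and 137 counts in the KD-labelled libraries. These were 10.7 and 15.1 CPM against 2.08 and 2.86 CPM, so the groups did not overlap. INSR fell by 2.39 on the log2 scale (SE 0.26, 95% interval -3.01 to -1.76, FDR 0.000830), a level 5.23-fold lower, and 2.14% of all genes tested fell at least as far. With the correction for length and GC content its log2 fold change was -2.08.

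INSR was the scarcer receptor in every library, and its ratio to IGF1R was lower in both KD-labelled libraries. Its RPKM was 0.100 and 0.118 of that of IGF1R in control and 0.0365 and 0.0546 of it in the KD-labelled libraries. The groups lay apart, with means of 0.109 ± 0.0125 and 0.0456 ± 0.0128 (SD, n = 2 each). The exact permutation test gave its smallest possible p, 0.333. IGF1R itself was at a mean of 10.9 RPKM in control and 5.05 RPKM in the KD-labelled libraries, and INSR at 1.19 and 0.228 RPKM.

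The receptor substrates gave no call. IRS1, the main docking protein of both receptors, lies at chr2:226731312-226799820 on the minus strand. It stood at 136 and 124 CPM in control and at 177 and 98.3 CPM in the KD-labelled libraries. PRMT5 KD replicate 1 was thus above both controls and replicate 2 below both. The log2 fold change of IRS1 was 0.09 (SE 0.29, 95% interval -0.64 to 0.81, FDR 0.821), and without PRMT5 KD replicate 1 it was -0.36.

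IRS2, a second docking protein that FOXO factors are known to induce, lies at chr13:109752695-109786583 on the minus strand. Its level was 49.1 and 48.0 CPM in control and 62.9 and 35.1 CPM in the KD-labelled libraries. It stood in the same order over the KD-labelled libraries as IRS1. The log2 fold change of IRS2 was 0.01 (SE 0.28, 95% interval -0.69 to 0.72, FDR 0.972), and without PRMT5 KD replicate 1 it was -0.43. Set against each other, IRS2 was 0.443 and 0.477 of IRS1 in RPKM in control and 0.436 and 0.439 of it in the KD-labelled libraries. The ratio thus varied by far less between the KD-labelled libraries than either gene did. Between the controls, relative to its size, the ratio varied by more than IRS2 and by less than IRS1. These intervals leave room for changes of either sign, and a call that was not made does not show equal levels.

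**Figure D3:**
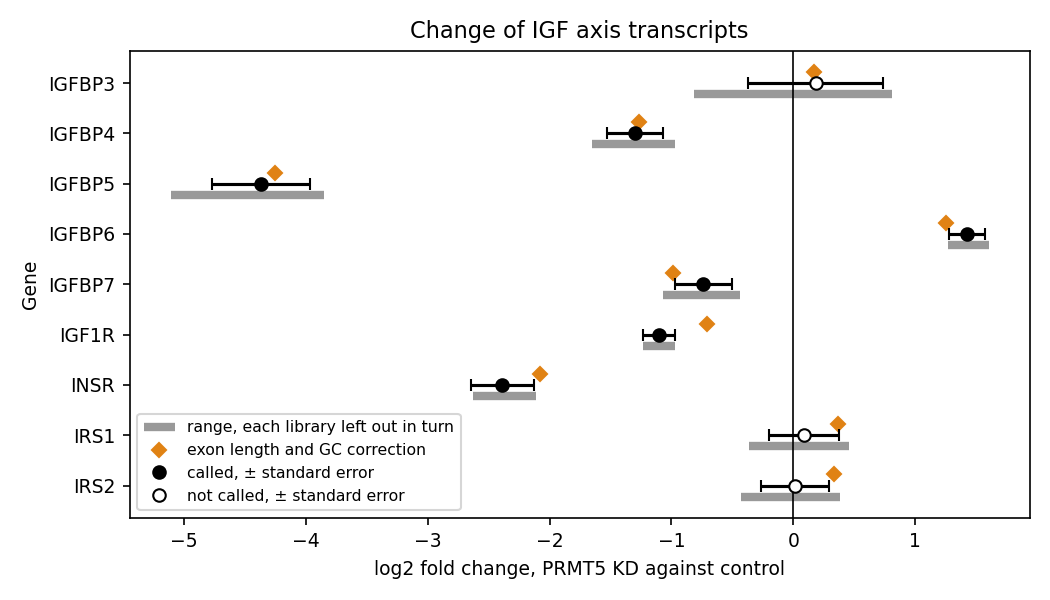
Log2 fold change of each tested member, PRMT5 KD label minus control, with its standard error (points and bars), the range when each library is left out in turn (grey bars) and the value corrected for exon length and GC (diamonds). IGFBP5 at -4.36 and INSR at -2.39 stand furthest below 0, IGFBP6 at 1.42 stands above it, and the grey bars of IGFBP3, IRS1 and IRS2 cross 0.

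Markers of other cell types were also read in these libraries, and their calls went in both directions. Of 7 fibroblast markers 6 were tested and all 6 fell, against 24.3% of all genes tested, the median being -2.56 in log2 fold change. Their summed level was 632 and 732 CPM in control and 87.7 and 97.3 CPM in the KD-labelled libraries, and no marker of the list was at 0 in any library. Among endothelial markers PECAM1 was the only one tested and fell, and the summed level of that list was 10.9 and 14.7 CPM against 2.10 and 1.15 CPM. The leukocyte markers summed to 129 and 153 CPM in control and 153 and 171 CPM in the KD-labelled libraries, with CD3E at 0 in all libraries and PTPRC at 3, 5, 0 and 2 counts. That sum was mostly CD68, a lysosomal protein of macrophages that other cells also express, which was at 94.5 and 113 CPM in control and rose to 152 and 169 CPM (log2 fold change 0.63, FDR 0.00837). CD14, a receptor for bacterial lipopolysaccharide on monocytes, went the other way, from 34.6 and 39.9 CPM to 1.07 and 1.86 CPM (log2 fold change -4.67, FDR 0.000243). These were the 2 tested markers of the list. The part of these differences in the lower IGFBP4, IGFBP5, IGFBP7, IGF1R and INSR was not tested. In bulk RNA, fewer cells of a type and less RNA per cell cannot be told apart.

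The ligands of the axis were near or at 0. IGF1 and INS had 0 counts in all 4 libraries. IGF2 had 1 and 1 counts in control and 24 and 22 in the KD-labelled libraries, below the level filter in both groups. By contrast IGF2R, which takes up IGF2 for breakdown in lysosomes and does not signal as IGF1R does, was at 2464 and 2787 CPM in control and at 1328 and 1032 CPM in the KD-labelled libraries. IGF2R fell by 1.15 on the log2 scale (SE 0.18, FDR 0.00283). Of IGFBP1, IGFBPL1 and IGFALS none passed the filter. The ligands and these carriers are named after their values were seen.

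In the proteases that cut IGFBPs and their inhibitors, 7 of 8 genes were tested, 1 rose and 3 fell. Of all genes tested, 21.2% rose and 24.3% fell, the shares to set beside the counts of this and the following lists. HTRA1, a secreted serine protease that cuts IGFBP5 among other proteins, was at 301 and 371 CPM in control and at 69.4 and 29.9 CPM in the KD-labelled libraries. It fell by 2.76 on the log2 scale (SE 0.44, FDR 0.00692). The log2 fold change was -3.45 without PRMT5 KD replicate 1 and -2.27 without PRMT5 KD replicate 2. STC1, a secreted inhibitor of PAPPA, was at 35.2 and 41.7 CPM in control and at 159 and 94.0 CPM in the KD-labelled libraries, and rose by 1.72 (SE 0.27, FDR 0.00489). The membrane proteases ADAM9 and ADAM12 fell by 1.01 and 0.80 on the log2 scale, and the call of ADAM12 was lost without control replicate 1 (-0.84, FDR 0.0525) or without control replicate 2 (-0.76, FDR 0.0733). PAPPA, the protease that cuts IGFBP4 and named here after its value was seen, stood at 616 and 574 CPM in control and at 918 and 421 CPM in the KD-labelled libraries, with a log2 fold change of 0.17 and no call.

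Downstream of the receptors, 12 of 16 adaptors and negative regulators were tested, of which 3 rose and 2 fell. The 3 that rose were SOCS1, SOCS3 and SOCS2, feedback inhibitors of cytokine and insulin signalling. SOCS1 had 87 and 84 counts in control and 308 and 445 in the KD-labelled libraries, a log2 fold change of 2.03 (FDR 0.00169). SOCS3 had 652 and 1025 counts in control and 4085 and 2572 in the KD-labelled libraries, a log2 fold change of 1.92 (FDR 0.00232). For both genes each KD-labelled library exceeded each control. SOCS2 rose by 1.40, a call lost without control replicate 2 (1.28, FDR 0.0623). The adaptor SHC1 fell by 0.76, a call lost without control replicate 2 (-0.68, FDR 0.0722), and GAB1 fell by 0.56, a call lost under the correction for length and GC content (-0.35, FDR 0.0782).

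All 29 genes of the PI3K, AKT and mTOR list were tested, of which 5 rose, 7 fell and 17 did not pass, the median log2 fold change being -0.16. The kinase AKT1 rose by 0.74 on the log2 scale, the mTOR activator RHEB by 0.69 and the AKT phosphatase PHLPP2 by 0.63. The lipid phosphatase INPP4B fell by 1.06 and the AKT substrate GSK3B by 0.97. PHLPP2 lost its call without control replicate 2 (0.62, FDR 0.0532), and INPP4B did so without control replicate 1 (-1.0, FDR 0.0508).

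FOXO factors, which AKT holds out of the nucleus, and genes they are known to induce gave no higher call. Of 11 tested among 12 genes, 6 fell and 5 did not pass, with a median log2 fold change of -0.82. Of all genes tested 24.3% fell, and the difference from that share was not tested. SESN3, a stress-induced inhibitor of mTOR complex signalling, was at 27.6 and 31.6 CPM in control and at 3.91 and 3.05 CPM in the KD-labelled libraries. It fell by 3.09 on the log2 scale (SE 0.18, FDR 0.000235). FOXO1 itself fell by 1.39 and TXNIP, which limits glucose uptake, by 1.24.

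Among matricellular proteins related to IGFBPs, ESM1 rose and KAZALD1 fell, out of 4 tested of 5. ESM1 had 27 and 12 counts in control against 1931 and 552 in the KD-labelled libraries, a log2 fold change of 5.87 (SE 0.91, FDR 0.00688). Leaving out a library moved it to 4.74 (PRMT5 KD replicate 1), 6.52 (PRMT5 KD replicate 2), 6.75 (control replicate 1) or 5.25 (control replicate 2), each with the call kept. KAZALD1 fell by 1.06. CCN3, a matricellular protein listed under its older symbol NOV, was not tested because that name matched no single gene, and it had 3187 and 4870 counts in control against 533 and 788 in the KD-labelled libraries. CCN3 is named after its values were seen. Of the 3 IGF2 mRNA-binding proteins IGF2BP2 fell by 0.79, a call lost without control replicate 1 (-0.69, FDR 0.0620), and the other 2 did not pass.

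Over the 9 lists together, 67 of 81 genes were tested, 10 rose and 21 fell. The share called was 46.3%, next to 45.5% of all genes tested. With the length and GC correction 13 rose and 16 fell, and 2861 and 2498 of all genes tested did. With library totals in place of TMM factors 15 rose and 17 fell. Over the 11 alternatives that used every library, 10 to 15 rose and 15 to 22 fell. Without control replicate 2 the counts were 6 higher and 13 lower, while over all genes tested they were then 1349 and 1758 in place of 2522 and 2895.

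**Figure D4:**
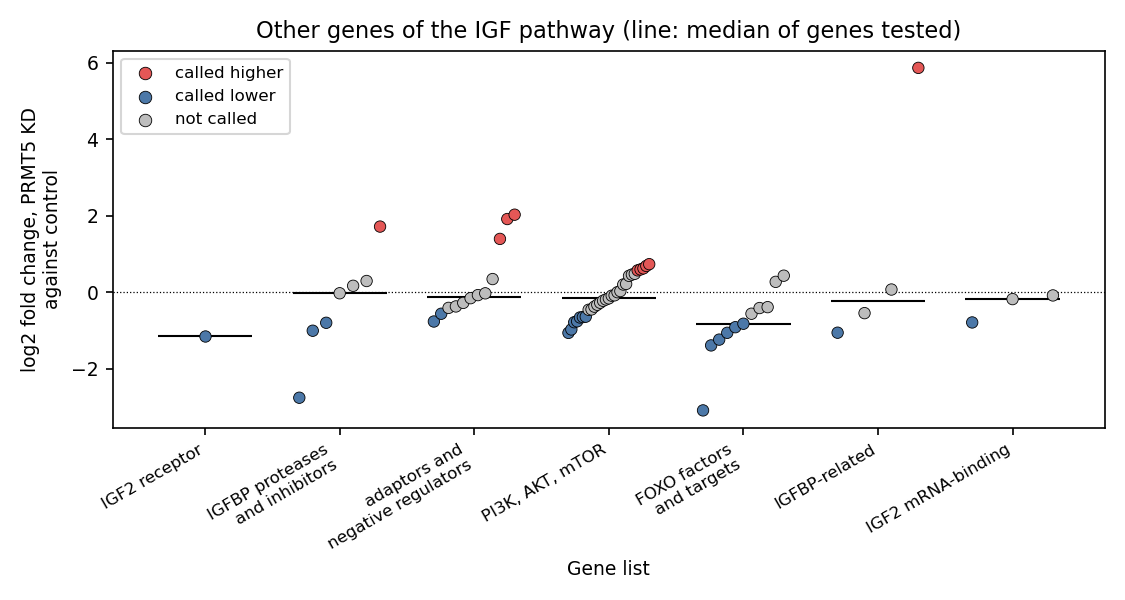
Log2 fold change, PRMT5 KD label minus control, of each tested gene in the lists of the pathway, coloured by call, with a line at each list's median. The FOXO list has 6 lower and 0 higher genes and a median of -0.82, and ESM1 at 5.87 is the highest point. Of all genes tested, 21.2% were called higher and 24.3% lower.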

How the data were processed

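RNA-seq libraries were prepared with a directional kit, per the labels, and read on the Singular Genomics G4. The authors deposited estimated count tables (expected counts per gene name), 1 per library, not normalized, of which 86.0% to 86.8% of values are whole. The submitters' processing notes name FastQC, Trim Galore, STAR, Salmon and DESeq2 on GRCh38, without versions or strand settings, whereas the paper's methods name FeatureCounts after STAR, so the program behind the deposited estimates is uncertain. Each table has 29744 rows, of which 28 had names turned into dates and were left out (0.150% to 0.161% of counts). Names were matched to GENCODE release 44, and same-named rows were summed.

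Counts were rounded. Protein-coding genes that reached an RPKM of 0.5 in both control or both KD-labelled libraries were tested with the quasi-likelihood test of edgeR 4.0.16 (robust, TMM, R 4.3.3), Benjamini-Hochberg adjusted over all 11906 genes. CPM and RPKM were computed from the counts with union exon lengths. Ratios were tested with exact two-sided permutation tests. DESeq2 1.42.0, other scalings and filters, a replicate block, length and GC correction (splines with 4 degrees of freedom) and leaving out each library were the alternatives. The procedure was tested on simulated data. The members and lists were chosen with earlier results of these data known. Besides members and PRMT5, up to 3 called genes per list and direction with the largest change are named, with the nearest protein-coding gene on each side of each member. A gene that this rule names is not reported here.

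Library totals ranged from 52185289 to 65964558 counts, and the 10 most abundant names took 19.2% to 28.8% of them. Standard errors rest on the spread between 2 libraries per group, which the edgeR test moderates with information from all genes tested. They are therefore not each gene's own spread alone.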

Additional observations from a re-analysis of the deposited data

How the results depend on the processing

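IGFBP4, IGFBP5, IGFBP6, IGF1R and INSR kept direction and call under all 11 alternatives that used every library, over -1.33 to -1.11, -4.43 to -4.20, 1.25 to 1.61, -1.11 to -0.70 and -2.39 to -2.07 in log2 fold change. IGFBP7 kept its call in 8 of 11 and lost it with all gene names (-0.63, FDR 0.0576), with library totals alone (-0.57, FDR 0.0584) and with the replicate block (-0.77, FDR 0.0604). IGFBP3 turned to -0.0124 with the length and GC correction and replicate block, and IRS2 to -0.0457 with the replicate block. The causes were not tested. A fold threshold of 1 in log2 left 1 member higher and 4 lower.

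When each library was left out in turn, log2 fold changes ranged from -0.82 to 0.81 for IGFBP3, -1.65 to -0.97 for IGFBP4, -5.11 to -3.85 for IGFBP5, 1.27 to 1.60 for IGFBP6, -1.07 to -0.44 for IGFBP7, -1.23 to -0.97 for IGF1R, -2.63 to -2.11 for INSR, -0.36 to 0.46 for IRS1, -0.43 to 0.38 for IRS2 and 0.57 to 0.78 for PRMT5. An arm left with 1 library was assumed to vary like the other. Members called numbered 1 to 2 higher and 4 to 5 lower, pathway genes 6 to 13 higher and 13 to 25 lower, and all genes 1349 to 2764 higher and 1758 to 2952 lower. Log2 group ratios ranged from -0.13 to -0.0183 for IRS2 over IRS1, -1.58 to -0.998 for INSR over IGF1R, -0.0893 to 0.22 for summed IGFBPs, and, for shares, -0.72 to 0.56 (IGFBP3), -1.57 to -1.24 (IGFBP4), -5.40 to -3.80 (IGFBP5), 1.27 to 1.45 (IGFBP6) and -1.33 to -0.36 (IGFBP7). RPL37A ranged from -0.15 to 0.23 and RHBDD1 from -0.47 to 0.0137.

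The replicate numbers were not taken as pairs, since no label pairs them and deviations of same-numbered libraries correlated at -0.10 over 11906 genes. With the replicate block, 1 member was higher and 4 lower, and 2401 and 2781 of all genes. A crossed pairing, chosen after seeing the data, gave 1 and 5 members and 2546 and 2939 of all genes. With library totals in place of TMM factors the median over all genes was 0.17 in log2 fold change, and 61.5% of calls were higher, against 46.6%.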

Other observations

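The nearest protein-coding genes of several members carried calls of their own, at very different distances. TNS3, 1353280 bases from IGFBP3, fell by 1.48 on the log2 scale. ADGRL3, listed as LPHN3 and 4089941 bases from IGFBP7, fell by 3.80 (-4.53 without PRMT5 KD replicate 2, -3.28 without PRMT5 KD replicate 1). ARRDC4, 674706 bases from IGF1R, fell by 1.26, a call lost without control replicate 2 (-1.12, FDR 0.0525). SPRYD3, 18032 bases from IGFBP6, rose by 1.07. TOP2A, 25554 bases from IGFBP4, rose by 0.96, a call lost without PRMT5 KD replicate 1 (1.00, FDR 0.0861), without PRMT5 KD replicate 2 (0.95, FDR 0.0983) or without control replicate 2 (0.64, FDR 0.0619). ZNF557, 24287 bases from INSR, rose by 0.69, a call lost without control replicate 2 (0.62, FDR 0.0758). NOA1, RHBDD1, RPL37A, COL4A1 and ARHGEF18 were not called, with log2 fold changes of 0.14, -0.23, 0.03, 0.48 and 0.40. With the length and GC correction COL4A1 was called at 0.86 (FDR 0.00171) and ARHGEF18 at 0.72 (FDR 0.00480). IGFBP1, which lies 18585 bases from IGFBP3, had 3, 0, 4 and 6 counts, and SOAT2, 1141 bases from IGFBP6, had 1, 1, 0 and 2.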
